A study of Arabidopsis thaliana with 3 samples.

Results

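Transcript levels in siliques of wild-type Arabidopsis thaliana were set against those in inflorescences, over all loci of the nuclear, chloroplast and mitochondrial genomes that reached 5 FPKM in either organ. FPKM are fragments scaled to transcript length and library size. A silique is the fruit, a pair of valves around the developing seeds, and an inflorescence is the flowering shoot tip, from closed buds to open flowers. Each deposited file lists the same 33857 identifiers, called loci here, and 17793 of them reached the minimum: 14433 in both organs, 1670 in silique only and 1690 in inflorescence only. The other 16064 were below it in both and are not described. The ratio is (FPKM + 1) in silique over (FPKM + 1) in inflorescence, so a positive log2 ratio means higher in silique, and the added 1 understates the ratio of low loci.

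All plants were of the Col-0 accession with no transgene. As a mock for plasmid delivery they were shot at an age of 3 weeks with bare gold particles of 0.6 µm, kept for 18 days more under 16 hours of light, and sampled at 5.5 weeks. Siliques, inflorescences and leaves all came from plants treated this way, and each organ gave 1 library of total RNA, sequenced with strand kept. The stage of the fruits, the share of open flowers and the number of plants behind a library are not stated in the labels. With 1 library per organ, no difference below has a replicate check, no p-value or error was computed, and "higher" compares these libraries. How many fragments a value rests on is unknown, and a value of exactly 0 can be a failed estimate, so such loci are given as listed at 0, without a fold. In RNA from whole organs, fewer cells of a type and less RNA per cell cannot be told apart.

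After fertilization the ovules become seeds. The endosperm grows first and feeds the embryo, and the embryo then fills with storage proteins and oil under transcription factors such as LEC1 and ABI3. The seed coat lays down flavonoid pigments and mucilage, and the fruit wall lignifies along the lines where it will open. Flowers hold what the fruit has lost: sepals, petals, nectaries and stamens, in which the tapetum, the inner layer of the anther wall, feeds the pollen and coats it.

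Most loci lay close to each other in the 2 organs. Of the 17793 loci, 13296 (74.7%) were within 2-fold, the median log2 ratio was 0.07, and the quartiles were -0.36 and 0.54. At least 4-fold higher in silique, with at least 5 FPKM there, were 1291 loci, or 7.26% of those described. At least 4-fold higher in inflorescence, by the same rule, were 982, or 5.52%. These 2 shares are the background for every list and family count below, and a count near them is no result about the members. A member that reached the minimum in 1 organ only entered through the organ where it was higher. Counts of such members are thus partly set by the minimum. Which organ had more depended on the scale: after the inflorescence values were scaled to the silique sum, 1161 loci were higher in silique and 1169 in inflorescence. The names of 1007 of the 1291 and 763 of the 982 could be read from their positions.

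**Figure D1:**
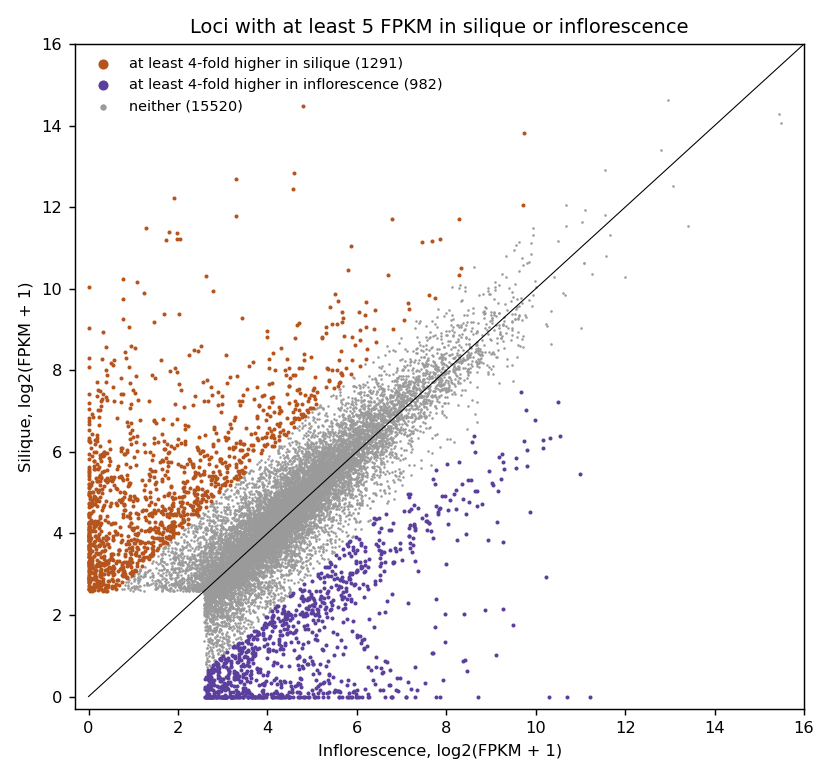
Each point is 1 of 17793 loci, with log2(FPKM + 1) in silique on the vertical axis and in inflorescence on the horizontal axis, 1 library each. The 1291 loci past 4-fold toward silique and the 982 past it toward inflorescence lie on either side of a band of 15520 others around the line of equal values, and points on an edge of the plot at 0 are listed at 0 in that organ.

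The silique-higher loci took a larger part of the transcript pool than the inflorescence-higher ones. They made up 19.5% of the summed FPKM of all 33857 loci, described or not, in silique and 1.297% in inflorescence, with 2.74% in leaf. The inflorescence-higher loci made up 0.504% in silique and 8.64% in inflorescence, with 0.710% in leaf. The median silique-higher locus was at 30.01 FPKM in silique, against 1.33 in inflorescence, and 117 of the 1291 were listed at 0 in inflorescence. The median inflorescence-higher locus was at 1.05 FPKM in silique, against 24.1 in inflorescence, and 144 of the 982 were listed at 0 in silique. Both sets contained genes that were high in 1 organ and near absent in the other: 237 silique-higher loci had at least 20 FPKM in silique and under 1 in inflorescence, and 153 inflorescence-higher loci the converse.

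Leaf did not enter the ratio. It was under 1 FPKM at 796 of the silique-higher loci (61.7%) and at 596 of the inflorescence-higher loci (60.7%), against 2163 of all 17793 (12.2%). Among the silique-higher loci leaf lay below both organs at 724, between them at 463 and above both at 104. Among the inflorescence-higher loci the numbers were 625, 307 and 50. Loci that separated fruit from flower were thus mostly low in leaf too, whichever organ was higher.

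The share past 4-fold was highest among the most abundant loci, in both directions. The classes were cut by the higher value of a locus, which also enters its ratio. The constant added to both values makes 4-fold harder to reach at low levels. The trend is thus partly set by the rule, and how far was not tested. Among loci whose higher value was between 5 and 10 FPKM, 6.38% were higher in silique and 6.90% in inflorescence, and both shares were lower between 10 and 20 FPKM, at 5.50% in silique and 4.40% in inflorescence. Between 100 and 500 FPKM the shares were 12.1% in silique and 6.498% in inflorescence, and among the 302 loci of at least 500 FPKM they were 20.5% in silique and 10.6% in inflorescence. The median log2 ratio was 0.45 in that top class, against -0.09 among the 3477 loci between 5 and 10 FPKM.

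Short loci differed more often than long ones. Of 424 loci 200 to 500 bp wide, 39.9% were higher in silique and 18.4% in inflorescence, and the median log2 ratio was 0.97. Of 4181 loci of at least 4000 bp, 3.01% were higher in silique and 2.54% in inflorescence. The median width was 1409 bp for silique-higher loci and 1674.5 bp for inflorescence-higher loci, and 2653 bp for the rest. Under 200 bp, where few fragments can give a large FPKM, 31.5% of 73 loci passed toward silique and 30.1% toward inflorescence. Leaving out those narrow loci gave 1268 silique-higher and 960 inflorescence-higher loci. The part of read number in the other width classes was not tested.

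**Figure D2:**
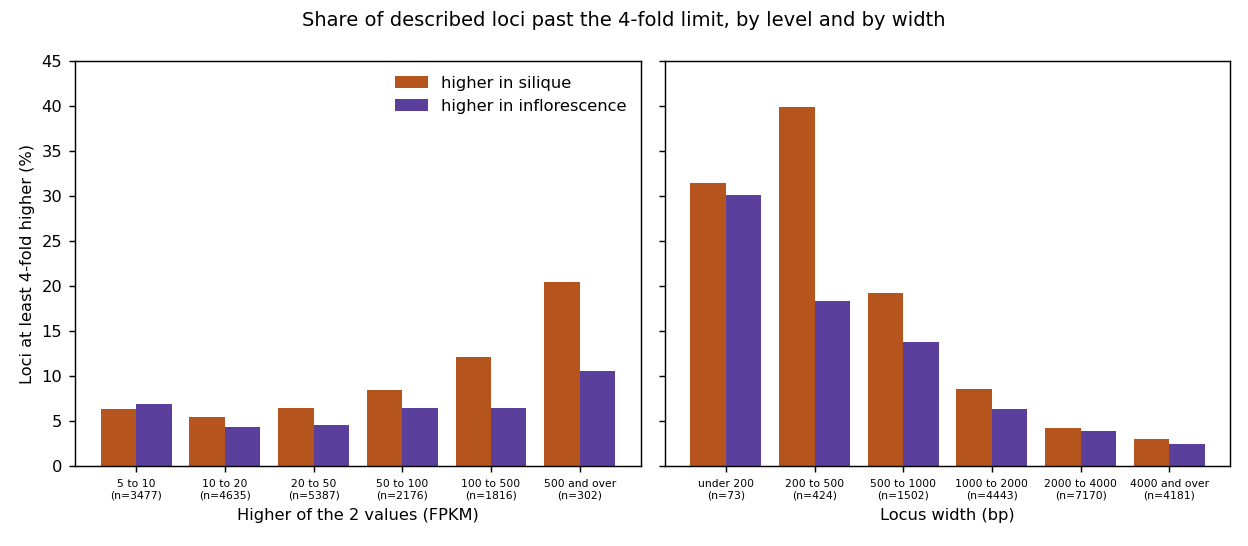
The bars give the percentage of loci at least 4-fold higher in silique or in inflorescence, by the higher of the 2 FPKM values (left) and by locus width in bp (right), with the number of loci under each class. Silique reaches 20.5% in the top class of level and 39.9% at 200 to 500 bp, while loci of at least 4000 bp stay at 3.01% toward silique and 2.54% toward inflorescence.

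Known seed proteins, as CRU2, stood among the largest ratios toward silique, beside genes of other kinds. AT5G38160 (chromosome 5, 15225767 to 15226208) and its neighbour AT5G38170 (chromosome 5, 15227638 to 15228081) both encode small proteins of the lipid transfer and seed albumin superfamily. AT5G38160 was at 4782 FPKM in silique, against 2.74 in inflorescence, with 4.64 in leaf. AT5G38170 was at 2892 in silique and 1.45 in inflorescence. CRU2 (chromosome 1, 985751 to 988146), a 12S globulin of the protein bodies, had 2644 FPKM in silique, against 2.96 in inflorescence. ENODL3, an early nodulin-like protein gene (chromosome 4, 14032845 to 14033840), had 487 in silique and 0.251 in inflorescence, and the knottin gene AT1G47540 (chromosome 1, 17455533 to 17456170) 1141 in silique and 1.104 in inflorescence. A group on chromosome 1 stood among them: AT1G62000 was at 2393 FPKM in silique, against 2.96 in inflorescence, AT1G62060 at 2326 in silique and 2.32 in inflorescence, AT1G62070 at 610.0 in silique and 0.695 in inflorescence, and AT1G62080 at 2694 in silique and 2.46 in inflorescence. All 4 lie between 22913441 and 22946949, and none passed 7.18 FPKM in leaf.

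Among the most abundant silique-higher loci, some were also high in the flower. AGP15, an arabinogalactan peptide gene (chromosome 5, 3784251 to 3784792), was at 4281 FPKM in silique, against 837 in inflorescence, and leaf was above inflorescence at 1141. LTP4, a lipid transfer protein gene (chromosome 5, 23925085 to 23925852), stood at 3356 in silique and 311 in inflorescence, with 39.6 in leaf. AT1G56100 (chromosome 1, 20980369 to 20984058) was at 3341 in silique and 109 in inflorescence, with 2.04 in leaf. These 3 were thus fruit-higher by ratio without being absent from flowers.

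All 12 genes of seed storage and oil bodies that reached the minimum passed 4-fold toward silique, of 12 named, and their median log2 ratio was 8.05, against 0.07 over all described loci. The lowest of the 12 ratios belonged to CRU3, a globulin gene (chromosome 4, 14087556 to 14089796), at 2111 FPKM in silique, against 57.5 in inflorescence, a log2 ratio of 5.17. The 2S albumin gene SESA5 (chromosome 5, 22238358 to 22239187) lies on another chromosome than SESA1 to SESA4 and was at 1260.1 in silique and 5.22 in inflorescence. Among oleosins, which coat oil bodies, OLEO4 (chromosome 3, 10243755 to 10245023) was at 978 in silique and 5.87 in inflorescence and OLEO3 at 332 in silique and 3.78 in inflorescence. ATS1, a caleosin of the same bodies (chromosome 4, 13473516 to 13475328), was at 224 in silique and 0.660 in inflorescence. Coat proteins of oil bodies and storage proteins of the vacuole were all higher in silique, over a range of levels in silique from 224 to 22796 FPKM.

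Of 19 genes of fatty acid and triacylglycerol synthesis, all described, 1 passed 4-fold toward silique and none toward inflorescence, where 7.26% and 5.52% of all described loci did, and the median log2 ratio was 0.56. The one past it was FAE1, the condensing enzyme for very long chains of seed oil (chromosome 4, 16494205 to 16495842), at 58.3 FPKM in silique, against 0.0539 in inflorescence. WRI1, the transcription factor of seed oil synthesis (chromosome 3, 20114684 to 20118639), was at 30.4 in silique and 8.49 in inflorescence. KASI, a plastid condensing enzyme used in all cells (chromosome 5, 18774086 to 18776742), was at 253 in silique and 96.1 in inflorescence, FaTA, a thioesterase (chromosome 3, 9146271 to 9148486), at 35.4 in silique and 14.1 in inflorescence, and TAG1, the acyltransferase of the last step to triacylglycerol, at 34.0 in silique and 16.3 in inflorescence. Their flower levels were well above 5 FPKM, unlike that of FAE1. FAD2 and FAD3, the desaturases of oleate and linoleate, were at 961 and 169 in silique and 703 and 191 in inflorescence.

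Late embryogenesis proteins, which protect drying seeds, gave 6 described genes of 8 named. Of these 4 passed 4-fold toward silique and none toward inflorescence, and the median log2 ratio was 4.11. The 4 reached the minimum in silique only, so their number is partly set by the minimum. The dehydrin gene XERO1 (chromosome 3, 18941925 to 18942865) was at 38.1 FPKM in silique, against 0.444 in inflorescence, and ECP63 (chromosome 2, 15356834 to 15358612) at 21.6 in silique and 0.0435 in inflorescence. EM1, a protein of the dry seed (chromosome 3, 19214748 to 19215831), was at 27.4 in silique and 0.674 in inflorescence, while EM6 and M17 stayed under 5 FPKM in both organs. RAB18 (chromosome 5, 26518277 to 26519242), which also answers abscisic acid in vegetative tissue, was at 72.9 in silique and 3.20 in inflorescence, with 44.8 in leaf. These levels stood far under those of the storage proteins, the highest being 72.9 FPKM.

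Of 14 named regulators of embryo and maturation, 10 were described and 6 were at least 4-fold higher in silique, none passed it in inflorescence, and the median log2 ratio was 3.20. All 6 reached the minimum in silique only, so that count is partly set by the minimum. LEC1, a nuclear factor Y subunit of early embryos (chromosome 1, 7727577 to 7729617), was at 42.1 FPKM in silique, against 0.193 in inflorescence, and listed at 0 in leaf. ABI3, a B3 factor of maturation (chromosome 3, 8997370 to 9001190), was at 15.5 in silique and 0.0557 in inflorescence. DOG1, the dormancy gene (chromosome 5, 18589434 to 18591417), was at 17.1 in silique and 0.109 in inflorescence, and MYB118, a factor of the endosperm (chromosome 3, 10288603 to 10290934), at 18.4 in silique and 0.0711 in inflorescence. WOX8, which marks the basal embryo lineage (chromosome 5, 18648909 to 18650836), was at 6.58 in silique and 0.103 in inflorescence. The bZIP genes parted: DPBF2 (chromosome 3, 16079976 to 16081906) was at 11.3 in silique and listed at 0 in inflorescence, whereas ABI5 was at 5.07 in silique and 13.4 in inflorescence. HB-3, a homeobox gene of the list, also lay the other way, at 7.96 in silique and 23.3 in inflorescence. LEC2, ABI4, WOX2 and MYB115 did not reach 5 FPKM in either organ.

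Endosperm genes were higher in silique as well: 5 of 7 described genes, of 9 named, passed 4-fold, none was higher in inflorescence, and the median log2 ratio was 2.40. Each of the 5 reached the minimum in silique only, so that count is partly set by the minimum. RGE1 (also known as ZHOUPI), which drives endosperm breakdown (chromosome 1, 18424578 to 18426782), was at 14.0 FPKM in silique, against 0.149 in inflorescence. ALE1, a subtilisin protease needed for the embryo cuticle (chromosome 1, 23051002 to 23055672), was at 10.3 in silique and 0.00999 in inflorescence. The imprinted genes FWA (chromosome 4, 13038360 to 13042443) and PHE1 (chromosome 1, 24266481 to 24267320) were at 8.08 and 11.4 in silique and at 0.716 and 1.49 in inflorescence. SUC5, a sucrose transporter of the endosperm, was at 38.5 in silique and 13.1 in inflorescence and did not pass, and MEA and MINI3 stayed under 5 FPKM in both organs.

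Seed coat genes came next. Of 14 flavonoid genes, all described, 8 passed 4-fold toward silique and none toward inflorescence, and the median log2 ratio was 2.67. TT10, a laccase that browns the coat (chromosome 5, 19489327 to 19492744), had 206 FPKM in silique, against 0.915 in inflorescence. The late enzymes of proanthocyanidin synthesis were alike in ratio: DFR (chromosome 5, 17164141 to 17165918) had 255 in silique and 17.1 in inflorescence, LDOX (chromosome 4, 12004758 to 12006209) 266 in silique and 21.3 in inflorescence, and BAN (chromosome 1, 22791168 to 22792800) 438 in silique and 36.1 in inflorescence. Their regulators TT2 and TT8 had 20.3 and 28.6 in silique and 3.19 and 2.66 in inflorescence. FLS1, the flavonol branch enzyme, lay the other way without passing 4-fold, at 44.8 in silique and 102 in inflorescence. The tannin enzymes named and the flavonol enzyme thus had opposite order in the 2 libraries.

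Of 9 mucilage genes, all described, 3 were at least 4-fold higher in silique, none was in inflorescence, and the median log2 ratio was 1.45. Toward silique 7.26% of all described loci passed. PER36, a peroxidase of mucilage secretory cells (chromosome 3, 18943135 to 18944811), was at 46.7 FPKM in silique, against 0.158 in inflorescence. The transcription factor genes MYB61 (chromosome 1, 3086159 to 3087912) and KNAT7 (chromosome 1, 23337365 to 23340688) were at 39.6 and 64.5 in silique and 2.12 and 9.71 in inflorescence. PMEI6, an inhibitor of pectin methylesterase (chromosome 2, 19543991 to 19544806), was just under the limit at 17.5 in silique and 4.11 in inflorescence.

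Supply of sugar and amino acids to the seed had 14 described genes of 15 named. Of these 3 were at least 4-fold higher in silique, none was in inflorescence, and the median log2 ratio was 1.21. The share of all described loci higher in silique was 7.26%. SUS2, a sucrose synthase of the embryo (chromosome 5, 19943262 to 19947527), was at 67.1 FPKM in silique, against 0.652 in inflorescence. The sucrose exporter gene SWEET15 (chromosome 5, 4181042 to 4183306) was at 157 in silique and 12.1 in inflorescence. SWEET11 (chromosome 3, 18052466 to 18054755) was at 237 in silique and 49.7 in inflorescence, but leaf was above both at 799, and AAP2, an amino acid permease of the phloem, had the same order with 196 in silique, 65.9 in inflorescence and 475 in leaf. UMAMIT14 was near equal, at 44.0 in silique and 42.4 in inflorescence, and SUS1 lay furthest toward inflorescence of the list, at 52.8 in silique and 74.0 in inflorescence.

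The 3 hormone lists had from 1 to 4 genes past 4-fold toward silique and none toward inflorescence. Over all described loci the shares were 7.26% and 5.52%. Of 10 described gibberellin genes, of 16 named, only GA20OX3, a biosynthetic oxidase (chromosome 5, 2243553 to 2245339), passed 4-fold, at 85.6 FPKM in silique, against 0.0529 in inflorescence. Its paralog GA20OX2 was at 21.9 in silique and 18.2 in inflorescence, and the repressor gene RGL2 at 11.8 in silique and 28.7 in inflorescence, so the list's median log2 ratio was -0.06, which turned to 0.15 at a minimum of 20 FPKM. Of 11 described abscisic acid genes, of 14 named, 4 were higher in silique and none in inflorescence, the median log2 ratio was 1.17, and all 11 ratios were above 1. These 4 reached the minimum in silique only, so their number is partly set by the minimum. NCED6 (chromosome 3, 8761434 to 8763172) and NCED9 (chromosome 1, 29490895 to 29492875), which make the hormone in seeds, were at 6.79 and 5.05 in silique and 0.708 and 0.244 in inflorescence. The response genes RD29B (chromosome 5, 21237056 to 21239529) and RD29A (chromosome 5, 21240849 to 21243613) were at 5.03 and 10.5 in silique and 0.0511 and 1.31 in inflorescence, and RD29A was highest in leaf at 17.5. Of 9 described jasmonate genes, of 12 named, the lipoxygenase gene LOX4 (chromosome 1, 27308515 to 27312754) passed, at 64.6 in silique and 11.8 in inflorescence, and the median log2 ratio was 0.63.

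The fruit wall was less distinct. Of 12 named genes of fruit patterning and dehiscence, 8 were described, and the median log2 ratio of 0.56 became negative with no minimum, at -0.48. In each direction 1 of the 8 was higher, where 7.26% of all described loci passed toward silique and 5.52% toward inflorescence. NST3, a NAC switch of fibre walls (chromosome 1, 11865343 to 11866950), was at 11.8 FPKM in silique and listed at 0 in inflorescence. NST1 (chromosome 2, 19220727 to 19222916) and the valve margin gene IND (chromosome 4, 41665 to 43197) were at 10.2 and 10.1 in silique and 2.13 and 3.15 in inflorescence, and the dehiscence polygalacturonase gene ADPG1 at 16.1 in silique and 7.25 in inflorescence. HEC3, of stigma and transmitting tract (chromosome 5, 3026401 to 3027075), was the one on the flower side, at 0.669 in silique and 10.1 in inflorescence. FUL, of valves and of inflorescence stems, was at 44.2 in silique and 61.0 in inflorescence.

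Of 21 named genes of secondary wall and lignin, 18 were described and 5 were at least 4-fold higher in silique, none passed it in inflorescence, and the median log2 ratio was 1.12. COBL4 (chromosome 5, 5084704 to 5086792) and the xylan synthesis genes IRX9 (chromosome 2, 15587394 to 15589257) and IRX10 (chromosome 1, 9529141 to 9531375) were at 67.0, 33.6 and 57.6 FPKM in silique. They were at 7.84, 3.81 and 8.55 in inflorescence. The laccase gene LAC4 (chromosome 2, 15934460 to 15937616) was at 135 in silique and 31.7 in inflorescence, and MYB103, a factor of fibre walls (chromosome 1, 23719783 to 23721774), at 9.602 in silique and 1.33 in inflorescence. The general phenylpropanoid enzymes PAL1 and C4H, shared with flavonoid synthesis, were at 123 and 215 in silique and 73.0 and 114 in inflorescence. XCP1 and XCP2, proteases of xylem vessels, lay the other way, at 7.17 and 27.2 in silique and 15.7 and 41.2 in inflorescence.

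**Figure D3:**
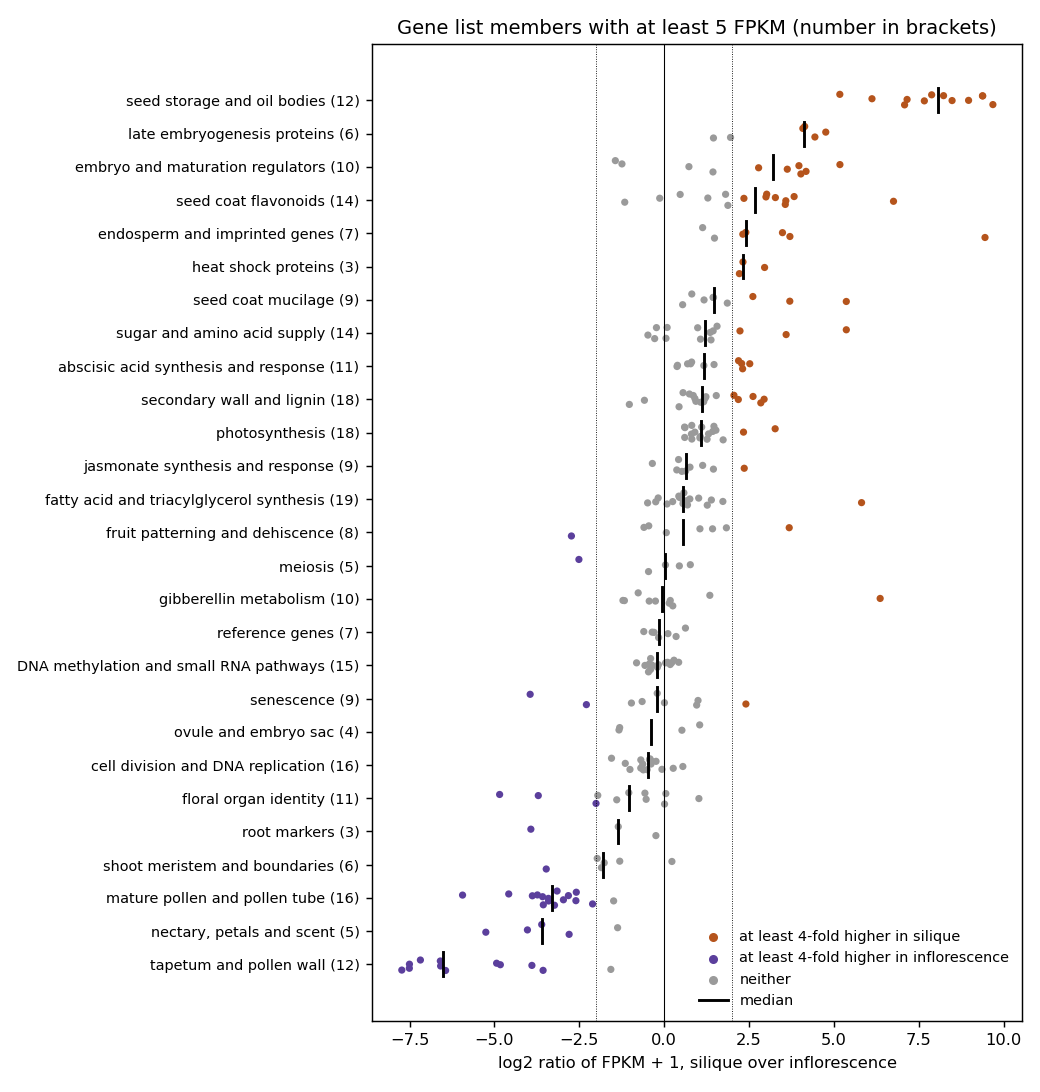
Each point is a gene of 1 list with at least 5 FPKM in either organ, placed by its log2 ratio of FPKM + 1 in silique over inflorescence, with a bar at the list's median and dotted lines at 4-fold. The lists run from seed storage and oil bodies, with a median of 8.05, to tapetum and pollen wall, with a median of -6.51, while reference genes lie at -0.16.

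The lowest median of all lists was that of the anther wall. Of 16 named genes of the tapetum and pollen wall, 12 were described, 11 were at least 4-fold higher in inflorescence, none was in silique, and the median log2 ratio was -6.51. ATA20, a glycine-rich anther protein gene (chromosome 3, 5201644 to 5203197), stood at 0.875 FPKM in silique, against 340.2 in inflorescence, and LTP12 (chromosome 3, 19135665 to 19136675) at 0.332 in silique and 241 in inflorescence. ACOS5, a CoA ligase of sporopollenin synthesis (chromosome 1, 23310535 to 23312747), was listed at 0 in silique and at 29.6 in inflorescence. The fatty acyl reductase gene MS2 (chromosome 3, 3814236 to 3817117) of the same pathway was at 0.122 in silique and 30.9 in inflorescence, and the hydroxylase gene CYP703A2 (chromosome 1, 112263 to 113947) at 0.0439 in silique and 11.4 in inflorescence. QRT3, a polygalacturonase that frees the pollen grains of a tetrad, did not pass, at 7.99 in silique and 25.7 in inflorescence. The early regulators DYT1, TDF1, MYB80 and MS1 were under 5 FPKM in both organs.

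Mature pollen genes were also higher in inflorescence but none described was listed at 0 in silique. Of 17 named genes, 16 were described, 15 passed 4-fold toward inflorescence and none toward silique, and the median log2 ratio was -3.32. PPME1, a pectin methylesterase of the pollen tube (chromosome 1, 26343369 to 26345058), was at 3.09 FPKM in silique, against 250.5 in inflorescence. PRF5, a profilin (chromosome 2, 8519638 to 8521192), was at 0.669 in silique and 38.9 in inflorescence, and ADF10, an actin-depolymerizing factor (chromosome 5, 21257934 to 21259342), at 1.601 in silique and 33.6 in inflorescence. VGD1, another pectin methylesterase of the tube (chromosome 2, 19327896 to 19330197), was at 39.7 FPKM in silique, against 599.5 in inflorescence, with 14.4 in leaf. Over the 16 described genes, the silique value was 1.24% to 25.5% of the inflorescence value, with a median of 9.62%, and the leaf value 0.401% to 30.9%, with a median of 2.39%. Over the 12 described tapetum genes the silique value was 0% to 31.1% of the inflorescence value, with a median of 0.294%, and QRT3 was the highest.

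Several of the most abundant inflorescence-higher loci are known from pollen. AGP23, an arabinogalactan peptide gene of pollen (chromosome 3, 21384204 to 21384572), was at 82.5 FPKM in silique, against 1486 in inflorescence. AT3G14040, an exopolygalacturonase gene (chromosome 3, 4648348 to 4650319), was at 22.2 in silique and 942 in inflorescence, and sks13, of the SKU5-similar multicopper oxidase family (chromosome 3, 4355138 to 4357428), at 65.3 in silique and 892 in inflorescence. BGLU18, a beta-glucosidase of ER bodies (chromosome 1, 19515143 to 19518411), differed in its leaf level, with 148 in silique, 1456 in inflorescence and 318 in leaf. FLR1, a leucine-rich repeat gene (chromosome 3, 3874499 to 3876237), was at 80.5 in silique and 1269 in inflorescence, and GASA4, a gibberellin-regulated peptide gene (chromosome 5, 4944900 to 4946216), at 109 in silique and 1008 in inflorescence.

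By ratio, the leading named coding genes on the flower side were AT1G66850, of the lipid transfer protein superfamily (chromosome 1, 24936958 to 24937434), and GRP19, a glycine-rich pollen coat protein (chromosome 5, 2388310 to 2389249). AT1G66850 was at 1.03 FPKM in silique, against 556 in inflorescence, and GRP19 at 2.37 in silique and 715 in inflorescence. AT5G53820 (chromosome 5, 21853397 to 21854117) was at 0.820 in silique and 333 in inflorescence, AT1G20130 (chromosome 1, 6977753 to 6980279) at 0.110 in silique and 163 in inflorescence, and AT5G22430 (chromosome 5, 7433790 to 7434935) at 3.44 in silique and 612 in inflorescence. TSM1, a methyltransferase of the tapetum (chromosome 1, 25489455 to 25490867), was at 0.107 in silique and 121 in inflorescence. None of these 6 exceeded 1.07 FPKM in leaf.

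Floral organ identity genes split. Of 14 named, 11 were described, 3 passed 4-fold toward inflorescence and none toward silique, and the median log2 ratio was -1.04. The share of all described loci past it toward inflorescence was 5.52%. PI, of petals and stamens (chromosome 5, 6829042 to 6831515), had 3.94 FPKM in silique, against 141 in inflorescence. AP1, of sepals and petals (chromosome 1, 25982330 to 25986313), was at 4.47 in silique and 70.5 in inflorescence, and SUP, of the stamen and carpel boundary (chromosome 3, 8242299 to 8243372), at 1.01 in silique and 7.08 in inflorescence. AP3, the partner of PI (chromosome 3, 20119173 to 20121170), did not follow it, at 63.3 in silique and 91.9 in inflorescence. STK, of ovule identity (chromosome 4, 6236375 to 6240932), lay on the fruit side at 144 in silique and 70.5 in inflorescence, and SEP2 (chromosome 3, 464279 to 467074) was level at 142 in silique and 141 in inflorescence. JAG, of petal and stamen outgrowth (chromosome 1, 25684314 to 25686165), was just under the limit at 0.680 in silique and 5.52 in inflorescence.

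Nectary and scent genes were mostly flower-higher, with 4 of 5 described past 4-fold, of 5 named, none past it in silique, and a median log2 ratio of -3.61. The 4 reached the minimum in inflorescence only, so their number is partly set by it. CRC, a regulator of carpels and nectaries (chromosome 1, 26007465 to 26009059), was at 0.0606 FPKM in silique, against 39.5 in inflorescence. The nectar sugar exporter gene SWEET9 (chromosome 2, 16306688 to 16308252) was at 1.88 in silique and 46.1 in inflorescence. TPS21, a sesquiterpene synthase of stigmas (chromosome 5, 8092813 to 8095331), was at 0.238 in silique and 14.1 in inflorescence, and BSMT1, a methyltransferase of benzoate and salicylate (chromosome 3, 3614437 to 3617314), at 0.229 in silique and 7.56 in inflorescence.

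Meristem genes followed in part. Of 10 named, 6 were described, WUS passed toward inflorescence, none passed toward silique, and the median log2 ratio was -1.81. Toward inflorescence 5.52% of all described loci passed. WUS, the stem cell organizer (chromosome 2, 7808871 to 7810795), was at 0.0751 FPKM in silique, against 10.96 in inflorescence. STM (chromosome 1, 23058582 to 23061722) and KNAT1 (chromosome 4, 5147700 to 5150966), which keep meristem cells undetermined, were at 14.1 and 9.09 in silique and 58.3 and 33.3 in inflorescence. CLV1, a receptor kinase, was at 13.9 in silique and 11.8 in inflorescence.

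Of 16 cell cycle and DNA replication genes, all described, none passed 4-fold in either direction, where 7.26% of all described loci passed toward silique and 5.52% toward inflorescence, and the median log2 ratio was -0.47. The D-type cyclin gene CYCD3;1 (chromosome 4, 16357639 to 16359555) had the largest difference, at 13.5 FPKM in silique, against 41.5 in inflorescence. KN, the syntaxin KNOLLE of the cell plate (chromosome 1, 2709632 to 2710912), lay the other way, at 71.7 in silique and 48.7 in inflorescence, and PCNA1, the sliding clamp of replication, was at 28.0 in silique and 29.3 in inflorescence. Leaf was under 6 FPKM for each of the 3, so both reproductive organs stood well above it.

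Of 9 named meiosis genes, 5 were described and 1 passed, SPL, needed to start sporogenous tissue (chromosome 4, 13682078 to 13683538), at 0.107 FPKM in silique, against 5.32 in inflorescence. In that direction 5.52% of all described loci passed. The recombinase gene DMC1 (chromosome 3, 8097687 to 8100820) was at 13.2 in silique and 9.44 in inflorescence, and XRI1 (chromosome 5, 19758881 to 19761945) at 25.5 in silique and 14.5 in inflorescence. The median log2 ratio of 0.04 turned to -0.17 when the libraries were scaled to the same sum. Of 8 named ovule genes, 4 were described. None of the 4 passed, where 7.26% of all described loci passed toward silique and 5.52% toward inflorescence. The median log2 ratio of the ovule genes, -0.40, became 0.15 with no minimum. Of these AGO9, of ovule small RNA silencing (chromosome 5, 7192239 to 7198336), was at 36.3 in silique and 91.5 in inflorescence, and FER, a receptor kinase that receives the pollen tube (chromosome 3, 19117584 to 19120881), at 180.4 in silique and 86.9 in inflorescence. EC1.5, AGL80 and AGL61, of the embryo sac, did not reach 5 FPKM in either organ. None of 15 described genes of DNA methylation and small RNA pathways passed in either direction, beside the same shares of all described loci. Their median log2 ratio was -0.20. MET1, the CG maintenance methyltransferase (chromosome 5, 19932230 to 19938369), was at 7.19 in silique and 11.1 in inflorescence, and AGO10 (chromosome 5, 17610972 to 17616797) had the largest difference, at 16.2 in silique and 29.2 in inflorescence.

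Lists for handling and for other tissue gave the background of the comparison. None of 7 reference genes passed 4-fold in either direction, where 7.26% of all described loci passed toward silique and 5.52% toward inflorescence. A list this short can have no call at those shares, so that count is no result. The median log2 ratio of the 7 genes was -0.16. Among them GAPC1 was at 417 FPKM in silique, against 270.1 in inflorescence, and TUB2 at 234 in silique and 356 in inflorescence. Of 7 named heat shock genes, 3 were described, and each passed 4-fold toward silique, with a median log2 ratio of 2.32. Each of the 3 reached the minimum in silique only, so that count is partly set by the minimum. With no minimum, the median over the 7 named was 1.46. HSP70 (chromosome 3, 3991261 to 3993792) was at 27.8 in silique and 2.70 in inflorescence, HSP90.1 (chromosome 5, 21352399 to 21355361) at 13.9 in silique and 1.98 in inflorescence, and HSP17.6II (chromosome 5, 3882237 to 3882938) at 5.05 in silique and 0.302 in inflorescence. HSP90.1 had 15.8 FPKM in leaf, near silique. The part of handling in the silique-higher set was not tested. Of 8 named root markers, 3 were described, with a median log2 ratio of -1.35 that became 0.11 with no minimum. IRT1, an iron transporter (chromosome 4, 10707426 to 10709015), was at 0.0509 in silique and 14.998 in inflorescence, while PLT1, PLT2 and WOX5 were under 5 FPKM in both.

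All 18 photosynthesis genes had a ratio above 1, and 2 of them were at least 4-fold higher in silique, none passed it in inflorescence, and the median log2 ratio was 1.08. LHCB2.1 (chromosome 2, 1823240 to 1824425) and LHCA1 (chromosome 3, 20339504 to 20341103), antenna proteins of the photosystems, were at 264 and 727 FPKM in silique, against 26.5 and 143 in inflorescence. RBCS1A, a Rubisco small subunit gene, was at 10868 in silique and 7169 in inflorescence, with 21488 in leaf. The chloroplast's own loci had the same direction: 24 of 25 described had a ratio above 1, with a median log2 ratio of 1.72, and they summed to 1313 FPKM in silique, 334 in inflorescence and 1047 in leaf. Loci under 200 bp gave much of these sums, as psbJ with 272 in silique and psaJ with 389 in leaf. The order of silique and leaf is thus uncertain. Of the 25, 11 passed 4-fold toward silique and 1 toward inflorescence, petG, which was listed at 0 in silique and at 67.9 FPKM in inflorescence. Of the 11, 5 were listed at 0 in inflorescence: psbZ, psbJ, psbL, psbF and an unnamed locus, 114 to 189 bp wide. The 19 loci above 0 in both organs all had a ratio above 1, 6 of them passed 4-fold toward silique, and they summed to 719.9 FPKM in silique and 266 in inflorescence. psbA, of photosystem II, was at 56.0 in silique and 6.77 in inflorescence, and rbcL, the large subunit of Rubisco, at 21.1 in silique and 3.93 in inflorescence. In leaf psbA was at 47.6 and rbcL at 6.85 FPKM, far under the nuclear gene RBCS1A.

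Of 9 senescence genes, all described, 1 was higher in silique and 2 in inflorescence, and the median log2 ratio was -0.21. Over all described loci the shares were 7.26% and 5.52%. SAG12, a cysteine protease of late senescence (chromosome 5, 18613259 to 18614930), was at 21.4 FPKM in silique, against 345 in inflorescence, and only 0.406 in leaf. NAP, a NAC factor of ageing leaves (chromosome 1, 26122139 to 26123421), was at 8.26 in silique and 44.4 in inflorescence, with 63.5 in leaf. RNS1, a secreted ribonuclease (chromosome 2, 873506 to 874811), lay the other way at 166 in silique and 30.6 in inflorescence.

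Several gene families went to 1 organ and some were divided between both. Symbols that share a stem were grouped after their values were seen, giving 108 stems with at least 8 described loci, and the 5 with the highest share past 4-fold in each direction are described, 9 in all since SCRL was among both, so their counts are no independent result. Beside each family count, the shares over all described loci were 7.26% toward silique and 5.52% toward inflorescence. The widest division was in the LCR family of low-molecular-weight cysteine-rich peptides, small secreted proteins of the defensin type. Of 64 described LCR loci, of 78 named, 27 were at least 4-fold higher in silique, 18 in inflorescence and 19 in neither. LCR35 was at 303 FPKM in silique, against 2.06 in inflorescence, LCR73 at 1412 in silique and 54.5 in inflorescence, and LCR39 at 169.5 in silique and listed at 0 in inflorescence. On the other side LCR17 was at 0.369 in silique and 124 in inflorescence. LCR32 was listed at 0 in silique and at 136 in inflorescence, and LCR25 likewise, with 108 in inflorescence. Of the 64, 50 were listed at 0 in leaf, so few members had a reading there. LCR68 and LCR69 were exceptions with 398 and 151 FPKM in leaf, and neither passed 4-fold.

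The related SCRL peptides, named after the cysteine-rich self-incompatibility protein of Brassica pollen, mostly passed 4-fold in 1 direction or the other. Of 21 described, of 26 named, 8 were at least 4-fold higher in silique, 12 in inflorescence and 1, SCRL6, in neither. SCRL10 was at 344 FPKM in silique, against 16.5 in inflorescence, and SCRL14 at 233 in silique and 9.05 in inflorescence. SCRL16 was at 0.0878 in silique and 22.5 in inflorescence, and 10 of the 12 on the flower side were listed at 0 in silique, SCRL25 among them with 58.2 in inflorescence. The flower-side members were low, and most were listed at 0 in fruit. All 12 of them met the minimum in inflorescence alone, and most of the 8 on the fruit side in silique alone. The division is thus partly set by that minimum. LCR and SCRL loci are narrow, with median widths of 497.5 and 493 bp, the class in which shares past 4-fold were high for all loci.

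Glutathione transferases of the phi class leaned to silique: 6 of 9 described GSTF loci passed, with none toward inflorescence. GSTF6 was at 372 FPKM in silique, against 18.6 in inflorescence, and GSTF12, the flavonoid carrier also known as TT19, at 171 in silique and 20.6 in inflorescence. GSTF2, GSTF9 and GSTF10 did not pass and were highest in leaf, GSTF9 with 292 in silique, 211 in inflorescence and 1787 in leaf. GSTF7, which passed at 6.36 in silique and 0.448 in inflorescence, was highest in leaf too, at 45.8. Among 11 loci with the stem SK, 6 passed toward silique and none toward inflorescence. Those 6 were all SKP1-like genes, whose products join ubiquitin ligases, as SK9 at 51.5 in silique and 0.774 in inflorescence and SK16 at 24.6 in silique and 0.396 in inflorescence. SK18, another SKP1-like gene, did not pass, at 22.7 in silique and 27.0 in inflorescence, nor did the kinases that share the letters, as SK13 at 31.5 in silique and 37.8 in inflorescence. Fasciclin-like arabinogalactan proteins, FLA, had 5 of 13 toward silique and 1 toward inflorescence. FLA12, of secondary walls, was at 318 in silique and 30.4 in inflorescence, and FLA13 at 308 in silique and 15.4 in inflorescence.

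RALFL, GRP, SKS and PERK had more loci past 4-fold toward inflorescence than toward silique. Of 16 described RALFL loci, which encode signalling peptides of the RALF type, 7 were at least 4-fold higher in inflorescence and 1 in silique. RALFL8 and RALFL9, neighbours on chromosome 1, were at 77.9 and 67.3 FPKM in silique, against 1150.0 and 1154 in inflorescence. RALFL4 and RALFL19, ligands that keep the pollen tube intact, were at 14.2 and 7.48 in silique and 143 and 95.9 in inflorescence. RALFL3 was the one toward silique, at 69.6 in silique and 5.88 in inflorescence. Of 14 loci with the stem GRP, 6 were higher in inflorescence and none in silique: GRP14 and GRP17 to GRP20, of the pollen coat, and GRP3S, at 2.04 in silique and 58.5 in inflorescence with 90.9 in leaf. The RNA-binding GRP7 was level, at 919 in silique and 987 in inflorescence.

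SKS loci, of SKU5-similar oxidases, had 5 of 12 toward inflorescence and 1 toward silique. sks12 was at 3.23 FPKM in silique, against 98.6 in inflorescence, sks14 at 20.7 in silique and 187 in inflorescence, and SKS2 lay the other way at 70.2 in silique and 16.6 in inflorescence. Of 10 PERK receptor kinases, 4 passed toward inflorescence and none toward silique. PERK4 was at 2.94 in silique and 34.8 in inflorescence and PERK6 at 0.779 in silique and 17.7 in inflorescence, while PERK1 was at 93.0 in silique and 55.0 in inflorescence.

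**Figure D4:**
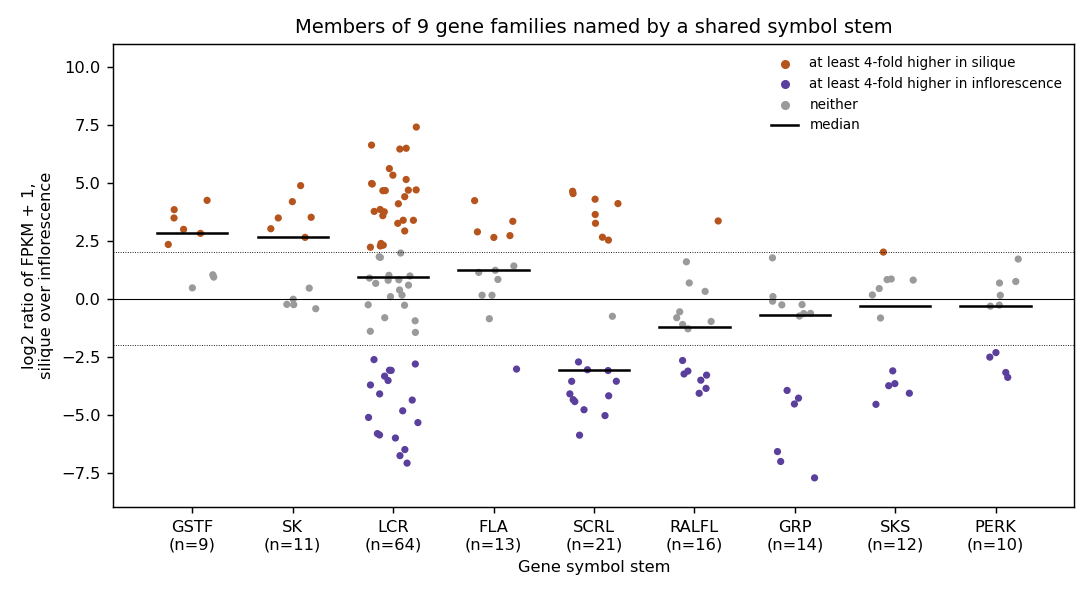
Each point is a described locus of 1 of 9 symbol stems, placed by its log2 ratio of FPKM + 1 in silique over inflorescence, with a bar at the median of the stem and dotted lines at 4-fold. LCR and SCRL loci lie on both sides, with 19 LCR loci and 1 SCRL locus short of 4-fold, whereas 6 GSTF and 6 SK loci pass toward silique and none toward inflorescence.

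Noncoding loci were few. Of 6 described miRNA precursors, 2 passed 4-fold toward silique and 4 toward inflorescence, where 7.26% and 5.52% of all described loci did. Of all loci under 200 bp, 31.5% passed toward silique and 30.1% toward inflorescence. A locus that meets the minimum in 1 organ and is listed at 0 in the other passes by the rule. MIR858a, whose miRNA targets MYB factors of flavonoid synthesis (chromosome 1, 26773539 to 26773725), was at 17.63 FPKM in silique and listed at 0 in inflorescence. MIR166d (chromosome 5, 2840628 to 2840728), 101 bp wide, was listed at 0 in silique and at 1659 in inflorescence, and MIR775 (chromosome 1, 29422452 to 29422574) was listed at 0 in silique and at 137 in inflorescence. The snoRNA gene SNOR108 (chromosome 5, 16598796 to 16598905), 110 bp wide, was listed at 0 in silique and at 416 in inflorescence. Each of these 3 flower-side values rests on a locus under 200 bp that was listed at 0 in leaf as well, and the number of fragments behind it is unknown. MIR858a is narrow too, at 187 bp. Among wider noncoding loci, AT1G09885 (chromosome 1, 28775781 to 28776040), 260 bp, was at 14.5 in silique and listed at 0 in inflorescence and leaf. The lncRNA gene AT3G02345 (chromosome 3, 3253420 to 3254043) was at 24.7 in silique and 0.271 in inflorescence. AT3G00930 (chromosome 3, 21990293 to 21990938), annotated as RNA of no class, was at 42.9 in silique and 2032 in inflorescence.

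Along the genome the shares were alike from chromosome to chromosome. The share at least 4-fold higher in silique was 7.49% of 4645 loci on chromosome 1, 7.74% of 2739 on chromosome 2, 6.63% of 3546 on chromosome 3, 6.997% of 2701 on chromosome 4 and 7.12% of 4129 on chromosome 5. The share higher in inflorescence ran from 5.09% on chromosome 5 to 6.03% on chromosome 3. Windows of 1 Mb differed more, but they hold far fewer loci, with a median of 175 in those kept. Shares of fewer loci vary more by counting alone, and how much of the range this gives was not tested. Over 105 windows with at least 50 described loci, the silique share ran from 1.83% to 15.9% with a median of 6.90%, and the inflorescence share from 1.57% to 15.4% with a median of 5.32%. The highest silique share was on chromosome 5 from 15000001 to 16000000, with 18 of 113 loci. The highest inflorescence share was on chromosome 3 from 15000001 to 16000000, with 8 of 52.

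Some loci past 4-fold lay side by side. Scanned in order along each nuclear chromosome, the 13973 described loci that were alone at their position held 35 runs of at least 3 silique-higher neighbours, with 124 loci, or 11.3% of the 1098 silique-higher loci scanned. They held 19 runs of inflorescence-higher neighbours, with 68 loci, or 8.24% of 825. The longest had 5 loci in silique and 6 in inflorescence. Several runs were tandem copies of 1 family, whose reads can be hard to tell apart, so the split between their members is uncertain.

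The 5 longest silique runs held LCR peptide genes, germin-like genes and genes of the lipid transfer and seed albumin superfamily, among others. On chromosome 5, from 15225767 to 15251314, AT5G38160 and AT5G38170 were followed by AT5G38180, at 303 FPKM in silique, against 0.480 in inflorescence, AT5G38195, at 186 in silique and 10.7 in inflorescence, and AT5G38197, at 38.0 in silique and 3.61 in inflorescence. On chromosome 4, from 14425441 to 14434524, the run was LCR23, LCR22, LCR21, LCR24 and LCR27. LCR21 had 209 in silique and 4.91 in inflorescence, while LCR25, whose locus starts at 14436284 just past this run, was flower-higher as above. On chromosome 3, from 1094621 to 1108069, AT3G04170, AT3G04180, AT3G04190 and AT3G04200 encode germin-like proteins, and the highest, AT3G04170, was at 92.1 in silique and listed at 0 in inflorescence. The fifth locus there, AT3G04210, a resistance gene homologue, was at 31.2 in silique and 3.64 in inflorescence but at 134 in leaf.

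On chromosome 1, from 22986002 to 23013529, the run held AT1G62210, AT1G62220, AT1G62225, the anion channel gene SLAH1 and the aspartic protease gene AT1G62290. AT1G62225 was at 532 FPKM in silique, against 0.881 in inflorescence, and AT1G62290 at 172 in silique and 1.04 in inflorescence. The other run on chromosome 1, from 18909924 to 18917774, had AT1G51000, AT1G51020, AT1G51030 and 2 loci without a name, and all 5 were listed at 0 in leaf. AT1G51000 was at 79.1 in silique and 0.893 in inflorescence.

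Runs on the flower side included pollen and tapetum genes. The pollen coat genes GRP14, GRP18, GRP17, GRP19 and GRP20 stood with 1 unnamed locus on chromosome 5, from 2377710 to 2391075, and summed to 6.29 FPKM in silique, against 1197 in inflorescence. EXL4, AT1G75920, EXL6 and ATA27, genes of extracellular lipases and a glucosidase of the tapetum, stood on chromosome 1 from 28501434 to 28514284. EXL6 was at 0.222 in silique and 105 in inflorescence, and ATA27 at 0.269 in silique and 183 in inflorescence. On chromosome 3, from 10805911 to 10840034, AT3G28780, AT3G28790, AT3G28810, AT3G28820, AT3G28830 and AT3G28840 formed a run in which AT3G28830 was highest, at 18.6 in silique and 563 in inflorescence.

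The other long flower-side runs were at lower and at similar levels. AT1G23570, AT1G23580, AT1G23590, AT1G23600, 1 unnamed locus and AT1G23670 lay on chromosome 1 from 8354806 to 8375897, and none passed 31.6 FPKM in inflorescence. On chromosome 3, from 76655 to 84897, AT3G01240 was at 47.5 in silique and 754 in inflorescence and the pectate lyase gene AT3G01270 at 35.6 in silique and 525 in inflorescence, and AT3G01230 and AT3G01250 completed the run.

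**Figure D5:**
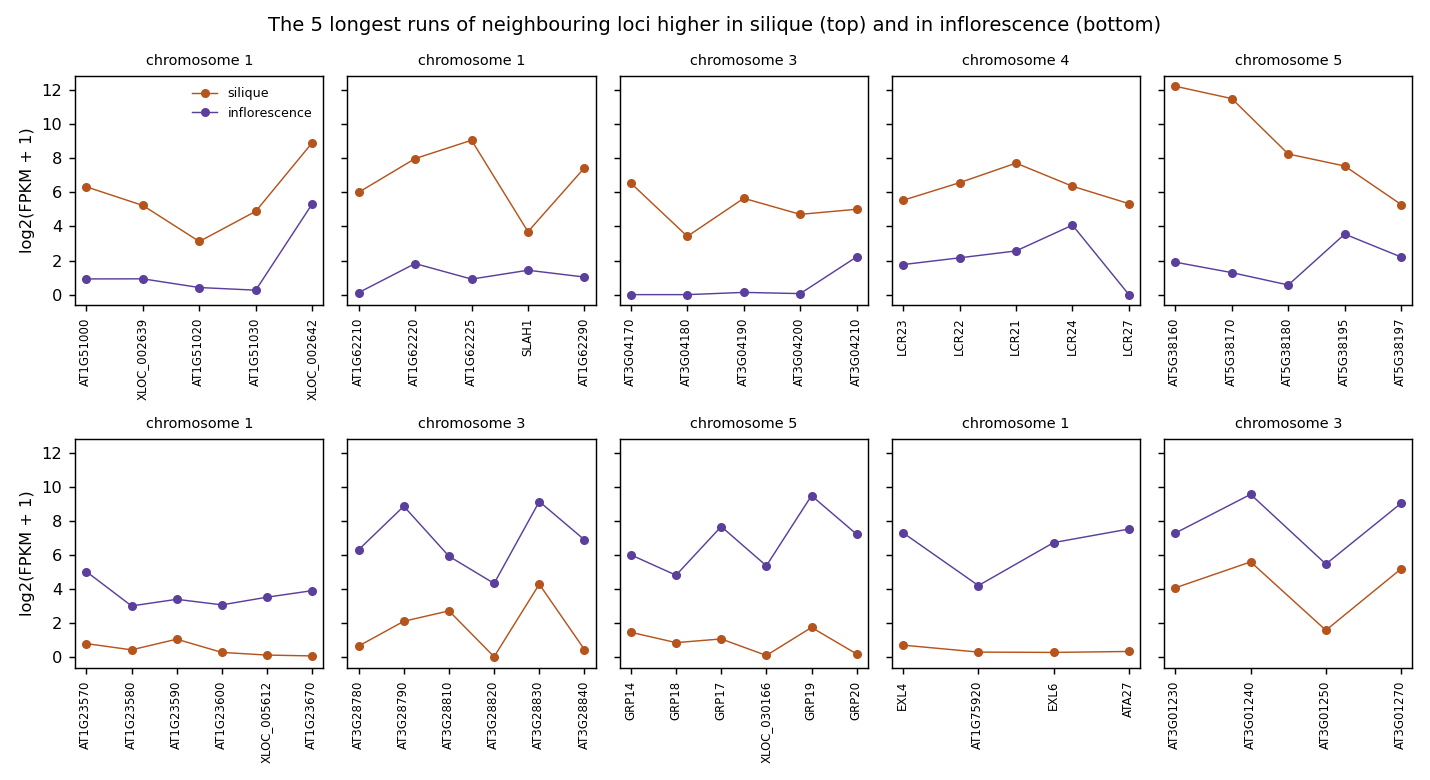
Each panel is a run of neighbouring loci in genome order, with log2(FPKM + 1) in silique and in inflorescence for each locus, 1 library each, and the lines only join neighbours. The top row has the 5 longest runs higher in silique, of 5 loci each, and the bottom row the 5 longest higher in inflorescence, of 6, 6, 6, 4 and 4 loci. The curves stay apart in every panel by the rule, since each locus of a run passed 4-fold.

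The limits used here cut through a continuous range. Just inside 4-fold toward silique was AT5G57480, at 8.17 FPKM in silique, against 1.29 in inflorescence, and just outside was AT4G06805, at 32.6 in silique and 7.41 in inflorescence. Just inside toward inflorescence was KCS7, at 1.14 in silique and 7.56 in inflorescence, and just outside was PME5, at 16.1 in silique and 66.9 in inflorescence. At the 5 FPKM minimum, AT4G24100 was inside with 5.003 in silique and 4.53 in inflorescence, and AT5G19300 outside with 4.77 in silique and 4.998 in inflorescence. The highest named nuclear loci with near equal values were AT5G60390, an elongation factor gene, at 1252 in silique and 1350.4 in inflorescence, CCL at 1168 in silique and 1009 in inflorescence, and FBR12, of the translation factor eIF5A type, at 1055 in silique and 1023 in inflorescence.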

How the data were processed

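The authors deposited FPKM values, per the file headers, with 1 value for each of 33857 identifiers at 30747 positions in each of 3 libraries, 1 per organ. The submitters' processing notes list TopHat and, as genome build, TAIR10. The quantifier, its annotation, the FPKM denominator, any scaling and the depth were not given in the sources used here. Because FPKM is relative to the library total, very abundant transcripts depress the values of the others. No strand is given with the values.

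Loci were matched between libraries by identifier. Names and gene types, and nothing else, came from RefSeq's gene table for TAIR10.1. A locus alone at its position was named when exactly 1 gene overlapped it by at least 50% of both lengths and lay in no other locus. This named 26029 identifiers and left 5653 at shared positions, 1509 where genes were several or overlapped in part, 514 without a gene and 152 on the mitochondrial genome. Of the described loci, 13161 were named. Positions printed are those of the files with 1 added to the start.

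Ratios used a pseudocount of 1, and a locus was counted as different at a ratio of at least 4 if the higher organ reached 5 FPKM. There was no replicate, so no test was made. The 27 gene lists had 425 entries: 277 described, 59 under the minimum, 80 not at a named locus and 9 dropped because the reference symbol differed. Medians cover the described members. Members and lists were chosen with earlier results of these data known. Genes were named by rule: the 15 largest ratios among loci of at least 20 FPKM and the 10 highest values in each direction, the 4 largest ratios in each list, the 3 largest noncoding ratios and the 5 longest runs in each direction, the 2 loci nearest each limit and the 5 highest near-equal loci. Not all are printed. Other list members, family members and chloroplast loci were named after their values were seen. Alternatives changed the pseudocount, the minimum, the ratio, the scaling between libraries, shared positions and narrow loci. The counting steps were tested on simulated data with Python 3.11.15, pandas 2.3.3 and NumPy 2.4.6, and figures were drawn with matplotlib 3.10.9.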

Additional observations from a re-analysis of the deposited data

How the results depend on the processing

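No paired analysis was possible because each organ had 1 library, and no replicate could be left out. The counts higher in silique and in inflorescence were 700 and 484 at a pseudocount of 5, 814 and 538 at a minimum of 20 FPKM, 2587 and 1910 at a ratio of 2, and 690 and 500 at a ratio of 8, against 1291 and 982. Under the other alternatives they stayed within 1.5 times. Scaling inflorescence to the silique sum moved the median of all loci to -0.17 from 0.07, and to -0.14 with the 100 highest loci left out of the sum, and scaling to a median of 0 left it at -0.00299. At a pseudocount of 5 it was 0.055.

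List medians moved as follows. With a pseudocount of 0.1, late embryogenesis gave 4.81, embryo regulators 5.70, tapetum -7.95 and heat shock 3.31. With a pseudocount of 5, endosperm gave 1.34, tapetum -4.62, pollen -2.41, cell division -0.36, meristem -1.18 and heat shock 1.44. With the same sum, fatty acid synthesis gave 0.32, cell division -0.69, meristem -2.03, jasmonate 0.39, heat shock 2.16, DNA methylation -0.43 and reference genes -0.40. Without the 100 highest loci in that sum, fatty acid synthesis gave 0.35, meristem -1.999, heat shock 2.18 and reference genes -0.37. With no minimum, heat shock gave 1.46 and root markers 0.11, and at a minimum of 1 FPKM heat shock gave 1.84. Medians that were small changed sign: fruit patterning was -0.48, -0.46 and -0.53 with no minimum and minimums of 1 and 20 FPKM, meiosis -0.07 with no minimum and -0.46 at 1 FPKM, ovule genes 0.15 with no minimum and gibberellin 0.15 at 20 FPKM. The causes were not tested. Depth is unknown and limits low and narrow loci most.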

Other observations

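Large differences also lay at loci that could not be named. XLOC_031339 (chromosome 5, 10647432 to 10649892) was listed at 0 in silique and in leaf and at 2384 FPKM in inflorescence. XLOC_023695 (chromosome 4, 1961139 to 1961892) was listed at 0 in silique and in leaf and at 1264 in inflorescence. On the other side XLOC_020124 (chromosome 3, 19157649 to 19158095) was at 1054 in silique and listed at 0 in inflorescence and leaf, and XLOC_022547 (chromosome 4, 12900430 to 12903125) was at 2372 in silique, 3.10 in inflorescence and 6.62 in leaf. Each of the 4 shares its interval with 1 other identifier, and how the fragments were divided between the identifiers was not determined. Among described loci, 3794 shared a position, of which 4.80% passed 4-fold toward silique and 4.09% toward inflorescence, against 7.92% and 5.91% of the 13999 alone at theirs.

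Storage protein and oil body genes had values above 0 in the inflorescence and leaf libraries too. The source of these low values was not tested. Over the 12 genes, the inflorescence value was 0.0833% to 2.72% of the silique value, with a median of 0.307%, and the leaf value 0.180% to 5.25%, with a median of 0.519%. CRU3 was highest in both, with 2111 FPKM in silique, 57.5 in inflorescence and 111 in leaf.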
